A study of Mus musculus with 6 samples.

Results

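The matrix metalloproteinase (Mmp), Adamts and tissue inhibitor of metalloproteinase (Timp) genes were examined in growth plate cartilage of mice expressing a mutant Idh1. The genes were taken by their symbols, and 47 of the 46078 genes in the count tables belonged to them, of which 24 were Mmp genes, 19 were Adamts genes and 4 were Timp genes. The 47 genes carried 46 distinct names, because Mmp27 was listed under 2 identifiers. RNA was sequenced in bulk from the cartilage of the distal femur and the proximal tibia at E18.5, in 3 control and 3 mutant libraries. The control genotype was Idh1 LSL/+ and the mutant genotype was Col2a1-Cre; Idh1 LSL/+, so that the lox-stop-lox allele was present in both groups and the Cre transgene in the mutants only. Cre was driven by regulatory elements of Col2a1, a collagen gene of cartilage, and the controls were littermates without Cre. The labels also gave an age of 2 months in their text on animal care, and E18.5 was used here.

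Metalloproteinases of the Mmp family are zinc enzymes that cut collagens, proteoglycans and other matrix proteins. Most are secreted as inactive proenzymes, and a membrane-type subgroup stays on the cell surface. The Adamts enzymes are secreted relatives with thrombospondin repeats, some of which cut aggrecan and versican while others trim procollagens. The 4 Timp proteins block Mmp enzymes, and Timp3 also blocks Adamts aggrecanases. In the growth plate, Mmp13 of the last hypertrophic chondrocytes and Mmp9 of the osteoclasts and related cells at the cartilage border are known for clearing cartilage before bone forms.

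A run of Mmp genes lies on chromosome 9 of GRCm38, from position 7272514 to 7699585. The run held 11 of the 47 genes, in the order Mmp13, Mmp12, Mmp1b, Mmp3, Mmp1a, Mmp10, Mmp8, both Mmp27 entries, Mmp20 and Mmp7. Within it, 6 genes had no count in any library, and 3 (Mmp13, Mmp3 and Mmp8) had enough counts to be tested. Upstream sequences of 4 of its genes are shown because this run held the members without counts and 2 of the 3 most variable members, and that of Mmp14 is shown for contrast as a highly expressed gene elsewhere. Each is the 120 bases before the RefSeq start of the gene (GRCm38.p6, forward strand), with matches to the AP-1, RUNX, TATA box and GC box motifs in capitals.
Mmp13, chr9:7272394-7272513: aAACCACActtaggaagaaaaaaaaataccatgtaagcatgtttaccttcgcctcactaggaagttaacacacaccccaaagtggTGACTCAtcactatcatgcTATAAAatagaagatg
Mmp3, chr9:7445702-7445821: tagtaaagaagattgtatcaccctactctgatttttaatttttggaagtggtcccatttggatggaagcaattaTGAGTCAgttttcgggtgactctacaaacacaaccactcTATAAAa
Mmp10, chr9:7502222-7502341: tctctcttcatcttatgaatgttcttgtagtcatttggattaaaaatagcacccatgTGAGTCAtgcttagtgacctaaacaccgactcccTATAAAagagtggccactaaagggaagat
Mmp8, chr9:7558309-7558428: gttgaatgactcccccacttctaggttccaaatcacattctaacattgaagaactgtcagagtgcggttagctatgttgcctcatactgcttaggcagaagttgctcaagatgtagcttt
Mmp14, chr14:54431478-54431597: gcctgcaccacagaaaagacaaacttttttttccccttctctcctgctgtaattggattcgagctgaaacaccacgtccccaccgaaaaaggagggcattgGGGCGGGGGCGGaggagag

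The motifs were searched on both strands of the 250 bases upstream of each start, as TGANTCA for AP-1 (its own reverse complement), TGTGGTT for RUNX, TATAAA for the TATA box and GGGCGG for the GC box. Promoters were matched for 32 of the 46 names, 35 promoters in all. A name was counted when any of its promoters held the motif, whereas the shares of all promoters count each promoter singly. An AP-1 match was present in 8 of the 10 names in the chromosome 9 run and in 0 of the 22 other names, against 6.75% of all 32851 promoters. A TATA box was present in 7 of the 10 names in the run and in 2 of the 22 others, against 12.4% of all promoters. RUNX matches occurred in 3 names, Mmp13, Mmp27 and Mmp7, against 4.40% of all promoters. The GC box showed the opposite distribution, with 0 of the 10 names in the run and 16 of the 22 others, against 32.7% of all promoters. In the stretches shown, Mmp13 had an AP-1 match, a TATA box and a RUNX match, Mmp3 and Mmp10 had an AP-1 match and a TATA box, Mmp8 had none of them, and Mmp14 had GC boxes only. A match describes the letters and does not show that a factor was bound.

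Total counts lay between 23445687 and 30415773 per library, at which 3 counts correspond to 0.0986 to 0.128 CPM (counts scaled to the library total). Levels of Idh1, the targeted gene, were 37.3, 39.2 and 65.4 CPM in control and 47.6, 47.7 and 56.3 CPM in mutant cartilage, with a log2 fold change of 0.10 (standard error, SE, 0.19, edgeR adjusted p = 0.940). The chondrocyte markers were present in every library, with Col2a1 between 1923 and 5245 CPM, and skeletal muscle markers summed to between 12184 and 18786 CPM. Collagen genes of other connective tissues were higher than Col2a1, with Col1a1 at 33199 to 47781, Col1a2 at 21226 to 27015 and Col3a1 at 13474 to 17766 CPM. The word cartilage thus stands here for the dissected tissue as a whole, and the part of each tissue in the levels was not tested. Xist had 26356 counts in mutant 3 and at most 13 in any other library, and 4 Y-linked genes together had 0 counts in mutant 3 and 3871 to 5449 in the others. Sex-linked expression was thus not balanced between the groups, and the part of sex in the values of mutant 3 was not tested. In bulk RNA, fewer cells of a type and less RNA per cell cannot be told apart.

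Of the 47 genes, 37 passed the expression filter and were tested: 14 Mmp genes and all Adamts and Timp genes. The 6 genes without a count were Mmp1a, Mmp1b, Mmp7, Mmp20 and both Mmp27 entries. Mmp10 had 10, 7 and 0 counts in control and 1, 0 and 1 in mutant cartilage. Mmp12, the macrophage metalloelastase, had 1, 0 and 2 counts in control and 2, 5 and 0 in mutant cartilage, and Mmp21 had 1 to 3 counts in every library. Mmp24, a membrane-type enzyme, had 4, 8 and 7 counts in control and 15, 5 and 37 in mutant cartilage. These 4 genes did not pass the expression filter. The interstitial collagenases Mmp1a and Mmp1b and the matrilysin Mmp7 were not detected at this depth, where a count of 0 allows a level of up to 0.0986 to 0.128 CPM, depending on the library.

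To compare levels between genes, counts were divided by exon length (RPKM). The gelatinase Mmp2 and the membrane-type Mmp14, which activates proMmp2 on the cell surface with the help of Timp2, had the highest levels of their family. Mmp2 had 177, 199 and 215 RPKM in control and 185, 172 and 163 RPKM in mutant cartilage. Mmp14 had 161, 154 and 180.5 RPKM in control and 161, 149 and 156 RPKM in mutant cartilage. Timp2 was close to them, with 139.5, 136 and 156 RPKM in control and 131, 116 and 136 RPKM in mutant cartilage. These were the 3 most abundant members, at ranks 199, 231 and 285 of the 16813 tested genes. Timp1 followed at a mean of 66.2 RPKM over the 6 libraries, and every other member had a mean of 32.0 RPKM or less. Together, Mmp2 and Mmp14 made up between 69.1% and 85.9% of the summed Mmp level of a library, and Timp2 between 56.0% and 67.7% of the summed Timp level.

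Among the Adamts genes the levels were lower and more even. Adamts10, a gene of Weill-Marchesani syndrome whose product acts on fibrillin microfibrils, was the most abundant at a mean of 32.0 RPKM. Adamts1, which cuts aggrecan and versican, had a mean of 19.1 RPKM, and Adamts2, the main procollagen N-propeptidase, had 14.9 RPKM. The aggrecanases of cartilage disease were expressed below these, with means of 10.04 RPKM for Adamts4 and 4.97 RPKM for Adamts5. The lowest was Adamts13, which cuts von Willebrand factor, at 0.113 RPKM. The 19 Adamts genes summed to 137 ± 8.62 RPKM (SD, n = 3) in control and 142 ± 9.91 RPKM (SD, n = 3) in mutant cartilage, and the 24 Mmp genes to 459 ± 32.7 and 417 ± 17.4 RPKM. The Timp genes summed to 231 ± 1.57 RPKM (SD, n = 3) in control and 214 ± 10.1 RPKM in mutant cartilage.

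**Figure D1:**
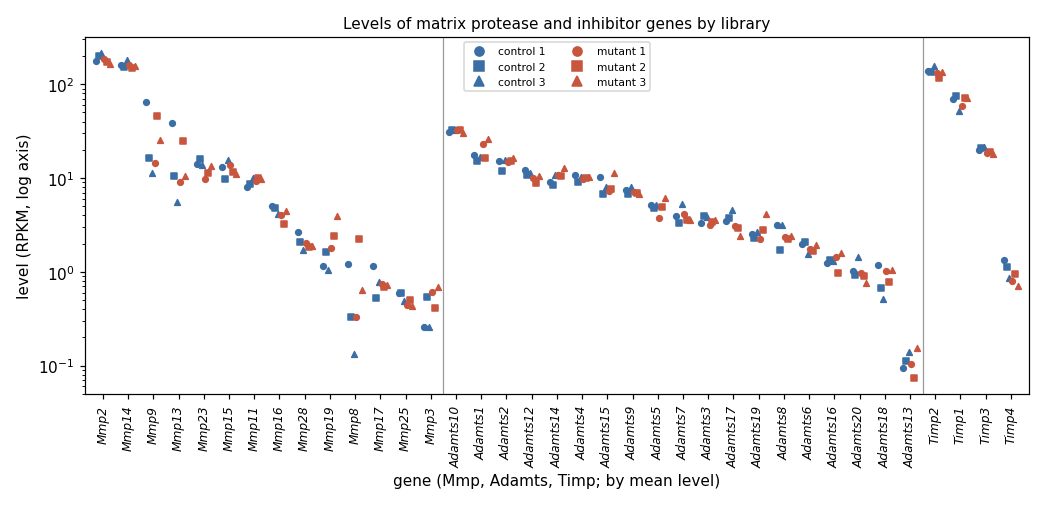
Level of each tested gene in each library, in RPKM on a log axis, with Mmp, Adamts and Timp genes parted by vertical lines and each ordered by mean level. Blue symbols are controls and red symbols are mutants. Mmp2, Mmp14 and Timp2 lie above 100 RPKM in every library, whereas Mmp9, Mmp13 and Mmp8 are spread widely within both groups.

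To assess whether the mutant Idh1 was accompanied by a different protease balance, each gene was compared between the genotypes in a fit across all genes. None of the 37 tested genes passed an adjusted p under 0.05 with edgeR's quasi-likelihood test, against 0.190% of all tested genes (0.0535% higher and 0.137% lower in mutants). At an unadjusted p under 0.05 there were 6 members, or 16.2%, against 8.64% of all tested genes, 3 higher and 3 lower in the mutants. DESeq2 called 1 member, Mmp19, and limma-voom called 0. Over all tested genes DESeq2 called several times as many as edgeR, as given in the last section, so edgeR's share is no measure for that call. The fitted log2 fold change was above 0 for 13 members and below 0 for 24, or 64.9% below 0, against 50.7% of all tested genes. The median was -0.09 over the members and -0.003 over all tested genes. For 22 of the 37 genes the log2 fold change was under 0.2 in size. The 95% interval lay within a doubling or a halving for 31 genes, and it was wider for 6.

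**Figure D2:**
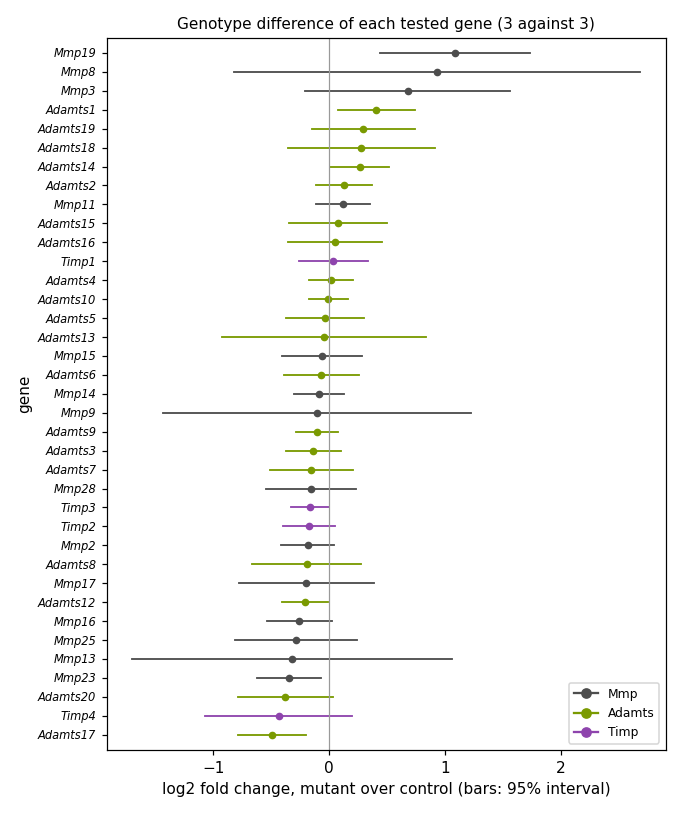
Log2 fold change of each tested gene, mutant over control, with its 95% interval from edgeR. Grey marks Mmp genes, green Adamts genes and purple Timp genes. Most points lie within 0.5 of 0, Mmp19 lies at 1.09, and the widest intervals belong to Mmp8, Mmp13 and Mmp9.

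Mmp19 had the largest fitted difference. This enzyme (ENSMUSG00000025355, chromosome 10 from 128790953 to 128800824, forward strand of GRCm38) is known to cut basement membrane proteins and cartilage oligomeric matrix protein. Its level was 3.98, 5.58 and 3.54 CPM in control and 6.06, 8.17 and 13.5 CPM in mutant cartilage. Every mutant lay above every control, and mutant 3, the library that differed in sex-linked genes, lay well above the rest. The log2 fold change was 1.09 (SE 0.29, 95% interval 0.44 to 1.74), with an unadjusted p of 0.00404 and an adjusted p of 0.283 from edgeR. With DESeq2 the adjusted p was 0.0125, and over all alternatives it lay between 0.00173 and 0.594. Without mutant 3 the log2 fold change was 0.70 and edgeR's adjusted p was 0.594. In the GENCODE annotation, some exon bases of Mmp19 are shared with Tmem198b on the opposite strand. Tmem198b had 25.9 to 36.8 CPM and a log2 fold change of -0.24 (edgeR adjusted p = 0.585). The bounds of Mmp19 there differ from those used in counting. If the exons used in counting share these bases too, reads on them were counted for neither gene. Mmp19 also shares exon bases with Gm47093 on the opposite strand, which was not among the counted genes. Strand was ignored in counting, so that reads of Gm47093 within Mmp19 exons could not be told apart from those of Mmp19.

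Adamts17 had the lowest p of the genes that were lower in the mutants. Variants of this gene, a relative of Adamts10, are known from a short stature syndrome of the Weill-Marchesani type. Its level was 24.9, 27.1 and 33.2 CPM in control and 21.996, 21.2 and 17.5 CPM in mutant cartilage. The 2 groups did not overlap, and mutant 3 was the lowest library. The log2 fold change was -0.49 (SE 0.13, unadjusted p = 0.00401, edgeR adjusted p = 0.282), and its adjusted p was 0.0753 with DESeq2. Without the low-count filter edgeR's adjusted p was 0.0226. Adamts10, by contrast, had 169, 179.5 and 177 CPM in control and 178, 179 and 166 CPM in mutant cartilage, a highest-to-lowest range of 1.08-fold. Its log2 fold change was -0.01 with a standard error of 0.08.

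The groups did not overlap in 6 of the 37 genes, or 16.2%, against 14.4% of all tested genes. Beside Mmp19 and Adamts17 these were Mmp23, Adamts12, Timp3 and Timp2, all 4 with lower values in the mutants. For each of the 6 the exact permutation test gave a two-sided p of 0.1, the smallest that 3 against 3 allow. Groups that do not overlap always give this value, so it adds nothing to their separation. Mmp23, an unusual enzyme anchored in the membrane by its amino-terminal end, had 33.4, 37.5 and 32.3 CPM in control and 22.9, 26.4 and 31.7 CPM in mutant cartilage. Mutant 3 reached almost to the lowest control. The log2 fold change of Mmp23 was -0.35 (SE 0.12, edgeR adjusted p = 0.456). Timp3, the inhibitor that binds to the matrix and blocks the aggrecanases, had 161, 171 and 174 CPM in control and 152, 153 and 147 CPM in mutant cartilage. The distance was small, with a log2 fold change of -0.17 (SE 0.07, edgeR adjusted p = 0.580), and Timp3 was among the least variable genes, at percentile 3.23 of the within-group spread of all tested genes. Timp2 had 544, 531 and 608 CPM in control and 508, 451 and 530.0 CPM in mutant cartilage, so that control 2 and mutant 3 nearly met. Its log2 fold change was -0.18 (SE 0.10, edgeR adjusted p = 0.694). With upper-quartile scaling Timp2 and Mmp23 overlapped between the groups and 4 genes did not.

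**Figure D3:**
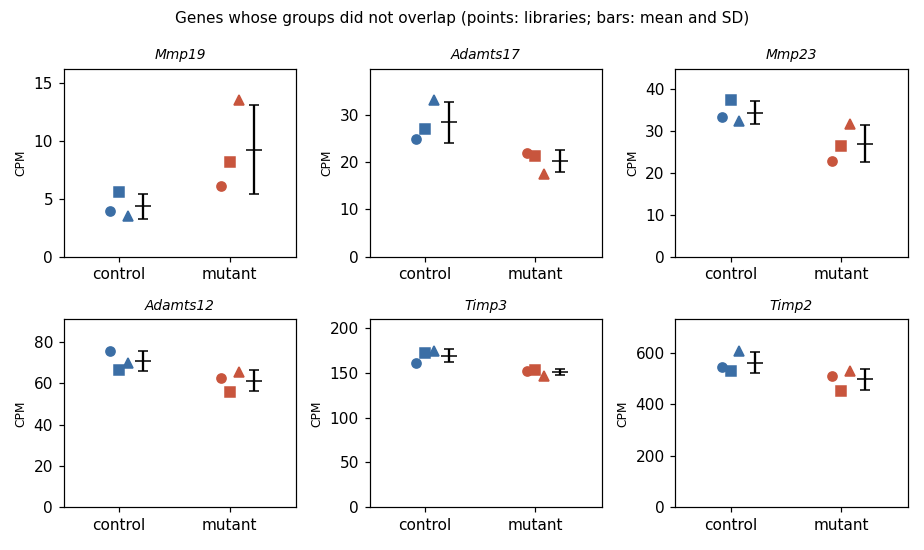
CPM of the 6 genes whose control and mutant libraries did not overlap. Circles, squares and triangles are replicates 1, 2 and 3 of each group, and the bars are the mean and SD of 3 libraries; Mmp19 is higher in the mutants and the other 5 genes are lower, with Mmp23 and Timp2 nearly meeting.

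Of the cell type marker lists, 3 did not overlap between the groups in their sums either: tendon and ligament, erythroid and epidermal. The sums of all other lists overlapped. The tendon and ligament sum was 2993 to 3288 CPM in control and 2004 to 2341 CPM in mutant cartilage. Of the 5 markers, Tnmd was called lower (log2 fold change -0.81, edgeR adjusted p = 0.0374), 4 including Tnmd had lower values at an unadjusted p under 0.05, and Thbs4 had a log2 fold change of 0.02. Erythroid markers summed to 457, 1313 and 528 CPM in control and 238 to 353 CPM in mutant cartilage, and 0 of the 4 were called by edgeR. Epidermal markers summed to 7.81 to 16.6 CPM in control and 6.58 to 6.70 CPM in mutant cartilage. Of the 3 epidermal markers tested, Krt5 was called lower (log2 fold change -4.46, edgeR adjusted p = 0.0355), and Krt10, which made up most of the mutant sum, had -0.04. None of the markers on these 3 lists was at 0 in all libraries. Their part in the lower values of the 5 genes above was not tested.

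By role, Mmp2, the gelatinase with the highest level, had a log2 fold change of -0.19 (SE 0.10, edgeR adjusted p = 0.677), with 538, 605 and 654 CPM in control and 561, 523 and 495 CPM in mutant cartilage. Mutant 1 lay above control 1, and the groups overlapped. All 5 tested membrane-type enzymes had fitted values below 0, from -0.07 for Mmp15 through -0.20 for Mmp17 and -0.26 for Mmp16 to -0.28 for Mmp25, and none had an unadjusted p under 0.05. In Mmp14 the difference was -0.09 with a 95% interval of -0.30 to 0.13. The stromelysins Mmp3 and Mmp11 had log2 fold changes of 0.68 (SE 0.40) and 0.12 (SE 0.10). Without control 2 the value of Mmp3 was 1.14, and that of Mmp11 was 0.048 without control 1 and 0.22 without control 3. Mmp3 was scarce, with 0.462, 0.979 and 0.470 CPM in control and 1.10, 0.731 and 1.24 CPM in mutant cartilage, and the groups overlapped at control 2. Mmp28, or epilysin, had a log2 fold change of -0.16 (SE 0.17).

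Of the 7 Adamts genes that cut aggrecan or versican, 3 had fitted values above 0 and 4 below. Adamts1 had 92.9, 80.2 and 88.7 CPM in control and 122, 87.3 and 138 CPM in mutant cartilage. Mutants 1 and 3 were above all controls, and mutant 2 was within them. The log2 fold change was 0.41 (SE 0.15, unadjusted p = 0.0208, edgeR adjusted p = 0.470), and without mutant 3 it was 0.26. Adamts5 lies next to Adamts1 on chromosome 16, and the pair spans positions 85793827 to 85901125. Levels of Adamts5 were 41.5, 39.1 and 41.7 CPM in control and 30.0, 39.8 and 49.0 CPM in mutant cartilage. The mutants spread on both sides of the controls, and the log2 fold change was -0.04 (SE 0.15). Adamts4 differed even less, with a log2 fold change of 0.02 (SE 0.08) and a 95% interval from -0.17 to 0.21. For Adamts15 and Adamts8, neighbours on chromosome 9 from 30899155 to 30963838, it was 0.07 (SE 0.19) and -0.19 (SE 0.21). Adamts9 had -0.11 (SE 0.08) and Adamts20, which cuts versican, had -0.38 (SE 0.18, edgeR adjusted p = 0.628).

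The 3 procollagen N-propeptidases release the amino-terminal propeptide of fibrillar procollagens. Adamts14 had 47.6, 44.3 and 56.3 CPM in control and 56.7, 54.2 and 66.9 CPM in mutant cartilage. The groups overlapped through control 3, and the log2 fold change was 0.26 (SE 0.11, unadjusted p = 0.0434, edgeR adjusted p = 0.557). Adamts2 and Adamts3 had log2 fold changes of 0.12 and -0.14. Adamts12 and Adamts7 cut cartilage oligomeric matrix protein. Adamts12 had 75.7, 66.5 and 70.0 CPM in control and 62.6, 55.7 and 65.5 CPM in mutant cartilage. All mutants were lower, mutant 3 only slightly so beside control 2, and the log2 fold change was -0.21 (SE 0.09, unadjusted p = 0.0431, edgeR adjusted p = 0.557). Adamts7 had -0.15 (SE 0.16), with overlapping groups. Among the rest, Adamts19 had 0.30, which was 0.01 without mutant 3, Adamts18 had 0.28, which was 0.05 without control 3 and 0.69 without control 1, Adamts16 had 0.05, Adamts6 had -0.07 and Adamts13 had -0.04. The remaining inhibitors did not separate the groups either: Timp1 had a log2 fold change of 0.03 (SE 0.13) and Timp4 had -0.44 (SE 0.28).

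Mmp9, Mmp13 and Mmp8 stood apart by their spread between libraries of the same genotype. The within-group SD of the log2 level was 1.10, 1.15 and 1.39, at the 99.6, 99.7 and 99.8 percentile of all tested genes, and no other member exceeded the 90th percentile. Mmp19 lay just below that line, with an SD of 0.473 at percentile 89.7. Mmp9 had 229, 57.3 and 40.4 CPM in control and 51.4, 163 and 90.1 CPM in mutant cartilage. Control 1 and mutant 2 were the highest libraries, and each group also held libraries near the low end. Mmp13 had 104, 28.0 and 14.8 CPM in control and 24.1, 65.8 and 28.2 CPM in mutant cartilage. Mmp8, the neutrophil collagenase, had 2.98, 0.816 and 0.325 CPM in control and 0.805, 5.48 and 1.58 CPM in mutant cartilage. The same pair, control 1 and mutant 2, was highest for all 3 genes. In share, Mmp9 and Mmp13 together made up 21.2% of the summed Mmp RPKM in control 1 and 16.2% in mutant 2, and between 3.67% and 8.93% in the other libraries.

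The genotype difference of these 3 genes was within this spread. It was -0.10 for Mmp9 (SE 0.59, 95% interval -1.43 to 1.23), -0.32 for Mmp13 (SE 0.62, 95% interval -1.70 to 1.06) and 0.93 for Mmp8 (SE 0.78, 95% interval -0.82 to 2.68) on the log2 scale. The direction depended on single libraries. Without control 1 the log2 fold change was 1.05 for Mmp9, 0.87 for Mmp13 and 2.17 for Mmp8, and without mutant 2 it was -0.62, -0.90 and -0.18. A change of the size of a doubling in either direction was therefore not detectable for Mmp9 and Mmp13 in 3 libraries against 3.

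Markers of other cell types followed the same libraries. Control 1 and mutant 2 were the 2 highest libraries in 876 of the 16813 tested genes, or 5.21%, a pattern that was looked for after these values were seen. It was present in 5 of 7 osteoclast markers, in 5 of 6 tested neutrophil markers, in 2 of 6 osteoblast markers and in 1 of 5 markers of prehypertrophic and hypertrophic chondrocytes, and in 0 of the chondrocyte, macrophage and endothelium markers. Acp5, the tartrate-resistant phosphatase of osteoclasts, had 57.3, 18.3 and 13.2 CPM in control and 19.6, 73.2 and 35.5 CPM in mutant cartilage. Calcr and Ctsk did not show it. Calcr, the scarcer of them, had 0.994, 0.326 and 0.939 CPM in control and 0.636, 0.569 and 0.310 CPM in mutant cartilage. Ctsk, which is also expressed outside osteoclasts, dominated the osteoclast sum of 203 to 299 CPM in control and 151 to 305 CPM in mutant cartilage. The neutrophil sum was 33.2, 9.23 and 4.73 CPM in control and 12.5, 74.0 and 17.6 CPM in mutant cartilage, with Elane at 0 to 0.406 CPM and no other marker of these lists at 0 in any library. Spp1, which hypertrophic chondrocytes, osteoblasts and osteoclasts express, had 287, 116 and 47.3 CPM in control and 164, 425 and 191 CPM in mutant cartilage. The sum of prehypertrophic and hypertrophic markers was 305 to 1556 CPM in control and 1367 to 2121 CPM in mutant cartilage. Ibsp was its largest part in every library, with 974, 332 and 120 CPM in control and 1142, 1475 and 952 CPM in mutant cartilage. The log2 fold changes were 1.32 for Ibsp (edgeR adjusted p = 0.557), 0.79 for Spp1, 0.30 for Col10a1, -0.14 for Pth1r and -0.26 for Ihh. Osteoblast markers summed to 214 to 340 CPM in control and 299 to 521 CPM in mutant cartilage. Their median log2 fold change was 0.35, the largest was 1.75 for Dmp1 (edgeR adjusted p = 0.522), and 0 were called. The part of these cell types in the levels of Mmp9, Mmp13 and Mmp8 was not tested.

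**Figure D4:**
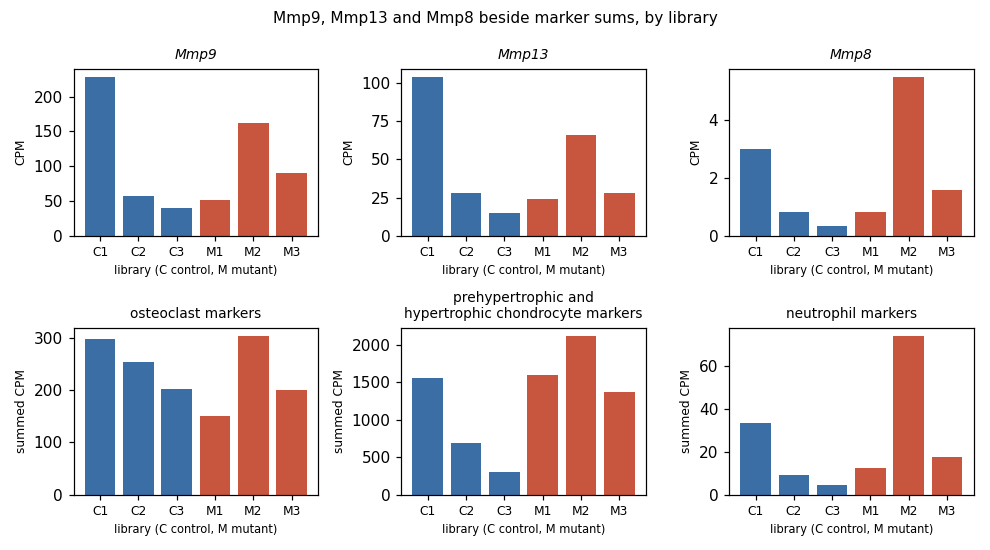
CPM of Mmp9, Mmp13 and Mmp8 (top) and summed CPM of 3 marker lists (bottom) in each library, with controls C1 to C3 in blue and mutants M1 to M3 in red. C1 and M2 are the 2 highest bars for the 3 genes and for the osteoclast and neutrophil sums, but not for the prehypertrophic and hypertrophic sum, where M1 and M2 are highest.

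Matrix proteases act together with activators, inhibitors and substrates, and 7 lists of such genes were read from the same fit. Among their tested genes edgeR called 1, against the 0.190% of all tested genes given above. It was Adam23, a membrane protein of the ADAM family that lacks protease activity. Adam23 had 18.4, 18.5 and 23.9 CPM in control and 11.4, 11.5 and 10.8 CPM in mutant cartilage. The groups were well apart, and the log2 fold change was -0.85 (SE 0.13, edgeR adjusted p = 0.0374). The call was lost in each of the 6 fits without 1 library and in edgeR with the replicate number as a block. Of the 10 ADAM genes tested, 3 were lower and 1 higher at an unadjusted p under 0.05, against 8.64% of all tested genes in either direction. Beside Adam23, the lower ones were Adam22 and Adam19, with log2 fold changes of -0.41 and -0.28, and the higher one was Adam8, with 0.48. Over all 7 lists, DESeq2, which called more of all tested genes than edgeR, called Adam23, Pappa2 and Fmod, and limma-voom called 0.

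None of the 11 tested genes for activation of Mmp proenzymes and the plasminogen system was called by edgeR, and 2 were higher at an unadjusted p under 0.05, against 8.64% of all tested genes in either direction. These were Pcsk7, a proprotein convertase (log2 fold change 0.19), and Plaur, the urokinase receptor (0.28), while the inhibitor Serpine2 had 0.18 with a p above that threshold. Among the 11 other brakes and receptors, 0 were called by edgeR, and Tfpi2 (-0.54) and Spock2 (-0.43) had lower values at an unadjusted p under 0.05. Spock3 and Sdc4 had -0.58 and 0.15.

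The 7 ADAMTS-like genes encode secreted proteins that resemble the Adamts enzymes without their protease domain. None was called by edgeR, but 3 of 7 had an unadjusted p under 0.05, all higher in the mutants, against 8.64% of all tested genes in either direction. Adamtsl4, which binds fibrillin microfibrils, had 98.2, 125 and 128 CPM in control and 143, 146 and 171 CPM in mutant cartilage. The groups did not overlap, and the log2 fold change was 0.39 (SE 0.12, edgeR adjusted p = 0.367). Adamtsl5 had 0.56 and Adamtsl2 had 0.43, whereas Adamtsl1 had -0.32 with an unadjusted p of 0.0586.

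Of the 14 cathepsins and other matrix proteases tested, 0 were called by edgeR, and 5 had an unadjusted p under 0.05, a threshold that 8.64% of all tested genes passed. Pappa2, a protease of insulin-like growth factor binding proteins, had 39.7, 47.9 and 54.3 CPM in control and 30.5, 35.2 and 34.1 CPM in mutant cartilage. It was lower in every mutant, with a log2 fold change of -0.51 (SE 0.12, edgeR adjusted p = 0.187). Fap and Htra1 had -0.38 and -0.31, and Ctss, a cathepsin of macrophages and related cells, had 0.50. Macrophage markers summed to 347 to 357 CPM in control and 337 to 458 CPM in mutant cartilage, and their part in the value of Ctss was not tested.

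Among 19 substrates, 0 were called by edgeR and 3 had an unadjusted p under 0.05, against 8.64% of all tested genes. Fmod, the small proteoglycan fibromodulin, had 1578, 1662 and 1913 CPM in control and 1146, 891 and 998 CPM in mutant cartilage. The groups were far apart and the adjusted p of 0.0602 (edgeR, log2 fold change -0.76, standard error 0.13) lay just above the threshold. Fmod is also one of the tendon and ligament markers above. Eln, elastin, had -0.82 (adjusted p = 0.275, edgeR), and the large proteoglycans Vcan and Acan had 0.42 and 0.20 (adjusted p = 0.523 and 0.646, edgeR).

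Of the 16 transcription factors, 0 were called by edgeR and 4 had an unadjusted p under 0.05, against 8.64% of all tested genes. Ets1 had 117, 108 and 117 CPM in control and 137, 135 and 135 CPM in mutant cartilage, a log2 fold change of 0.25. Runx2, which drives chondrocyte hypertrophy and transcription of Mmp13, had 45.6, 41.0 and 43.9 CPM in control and 37.2, 39.9 and 24.5 CPM in mutant cartilage. Mutant 3 was the lowest, and the log2 fold change was -0.36 (SE 0.16, edgeR adjusted p = 0.563). Runx3 had -0.33 and Etv4 had -0.38. The AP-1 genes Fos, Jun, Fosl1, Fosl2 and Junb had log2 fold changes between -0.02 for Jun and 0.21 for Fos, none with an unadjusted p under 0.05.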

How the data were processed

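Total RNA with an integrity number above the study's minimum was made into stranded oligo-dT libraries and sequenced single-end. The authors trimmed reads with Trim Galore 0.6.4, mapped them to GRCm38 with STAR 2.6.1d and assigned them to gene exons with featureCounts 1.6.4, without regard to strand and without multi-mapped or ambiguous reads. The deposited values are raw read counts for every gene in every library. No column of per-sample values was left unused. Groups and replicate numbers came from the sample labels, and litters were not given in the sources used here.

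The genotypes were compared over 16813 genes with edgeR 4.0.16 under R 4.3.3 (filterByExpr with a minimum count of 10 and a minimum total of 15, TMM factors, glmQLFit and glmQLFTest). Benjamini-Hochberg adjustment ran over all of them, with a threshold of 0.05. CPM and RPKM were computed here with the TMM factors, RPKM with the exon length in the count tables. Single genes were also tested with exact two-sided permutation tests. The common dispersion was 0.0173. By the exons of GENCODE, 7 of the 37 tested members share exon bases with another gene (Mmp19, Mmp28, Timp3, Adamts4, Adamts7, Adamts8 and Adamts9). Bounds were the same there as in the count tables for 28 of the 47 members. A read on bases that 2 genes share in the exons used for counting was counted for neither. The partner of Adamts8 and 1 of the 2 partners of Mmp19 were not in the count tables.

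The members, lists and tests were chosen with earlier results of these data known. Named genes were all tested members, all members below the filter, and up to 4 genes with the lowest p of each partner list, of which 1 is not reported here; genes beyond that rule (the AP-1 genes and cell type markers) were chosen after their values were seen. Alternatives were DESeq2 1.42.0, limma-voom (limma 3.58.1), RLE and upper-quartile factors, CPM without factors, no filter, at least 10 counts in every library, the replicate number as a block, and each library left out in turn. In simulated counts of 16813 genes for mutant against control, with 200 genes changed by a log2 fold change of 1.5, edgeR recovered 183 with 7 false calls. The simulated spread was that typical of each level. Recovery is thus not known for smaller changes or for genes as variable as Mmp9, Mmp13 and Mmp8. Replicate libraries differed by more than sampling noise (chi-square divided by its degrees of freedom 11.6 to 45.1), so each counted as 1 sample. The labels do not say that each library came from a separate animal, and p-values measure only the spread between these libraries, which may be technical. Intervals of counts and floors cover counting error only. Promoters were those of RefSeq (GRCm38.p6). Plots used matplotlib 3.10.9 (Python 3.11.15).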

Additional observations from a re-analysis of the deposited data

How the results depend on the processing

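Over all tested genes, edgeR called 32 of 16813, and DESeq2 was run on the same genes. DESeq2 called 193 (53 higher, 140 lower), DESeq2 with the replicate block 96, edgeR with the replicate block 3, limma-voom 19 and edgeR without the low-count filter 259, and leaving out 1 library gave 3 to 17. Among the members the count was 0, and it was 1 with DESeq2 (Mmp19) and 2 without the filter (Mmp19 and Adamts17). It stayed 0 with the other alternatives, including all 6 fits without 1 library. In the partner lists the count was 1 (Adam23), and it was 3 with DESeq2 (Adam23, Pappa2 and Fmod), 2 with DESeq2 and the replicate block, 6 without the filter, and 0 with limma-voom, with edgeR and the replicate block and in each fit without 1 library (0 to 0).

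Same-numbered controls and mutants did not deviate together (correlations -0.13, 0.0070 and -0.095), and the highest correlation was that of control 3 with mutant 1 (0.16). These values showed no pairing by number, but 3 libraries per group cannot exclude that equal numbers mark litters. The block left the members' count at 0.

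Of 294 member values under other settings, 284 kept direction and side of the threshold, 3 passed the threshold and 7 changed sign: Adamts10 (0.0049 with upper-quartile factors), Mmp9 (0.29 with the block in DESeq2, 0.28 with the block in edgeR, 0.17 with limma-voom) and Mmp13 (0.11, 0.080 and 0.012 in the same order). Of 222 values without 1 library, 24 changed sign, in 15 genes. Their log2 fold changes ranged from -0.045 to 0.067 for Adamts4, from -0.30 to 0.020 for Mmp28, from -0.10 to 0.24 for Adamts16, from -0.18 to 0.016 for Adamts6, from -0.22 to 0.12 for Adamts5, from -0.034 to 0.029 for Adamts10 and from -0.38 to 0.17 for Adamts13. They ranged from -0.62 to 1.05 for Mmp9, from -0.44 to 0.13 for Mmp17, from -0.22 to 0.10 for Mmp15, from -0.90 to 0.87 for Mmp13, from -0.18 to 2.17 for Mmp8, from -0.16 to 0.26 for Adamts15, from -0.30 to 0.056 for Adamts7 and from -0.10 to 0.14 for Timp1. For all of them the cause was not tested. Without a change of sign, single libraries also moved Adamts2 to 0.02 (without control 2), Adamts8 to -0.43 (without control 2) and -0.05 (without control 1), and Adamts20 to -0.16 (without control 3). Groups that did not overlap numbered 6, and 5 with RLE factors, 4 with upper-quartile factors and 6 without factors. Depth limited Mmp10, Mmp12, Mmp21 and Mmp24, which had too few counts to be tested.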
